A study of Rattus norvegicus with 20 samples.

Results

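The genes described here are 10 circadian clock repressors and clock output genes of the rat: Nr1d1, Nr1d2, Dbp, Tef, Hlf, Per1, Per2, Per3, Cry2 and Usp2. They were chosen by name, with the isoflurane against oxygen contrast of these arrays already known, and Nr1d1 was among the genes that had shown the clearest difference. The p-values of that contrast are therefore given as values of the fit, not as independent support. All 10 genes had a probe set annotated to that gene alone, out of 14217 genes with such a probe set, and they had 21 probe sets together. Of these, 18 were bright enough to be tested (a mean log2 signal over 6.62, which leaves out the dimmest 40 percent of the array). The other 3, for Per2 (1378560_at), Per3 (1388239_at) and Hlf (1384811_at), were dimmer.

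The circadian clock is a transcriptional feedback loop found in nearly every cell, brain cells included. The activators CLOCK and BMAL1 bind E-box elements and switch on the Per, Cry and Nr1d genes. The PER and CRY proteins then repress the activators, and the NR1D (REV-ERB) nuclear receptors repress Bmal1. The loop drives output genes, among them Dbp, Tef and Hlf, transcription factors of the PAR bZIP family that bind D-box elements.

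The 20 arrays held brain RNA, labelled as cortex, from male Sprague Dawley rats 20 weeks old and 250 to 300 g in weight. One group of 10 rats had breathed 2% isoflurane (1.4 MAC, a unit of anaesthetic potency) in oxygen for 15 minutes, and the other 10 had breathed oxygen alone for the same time. Brains were taken 6 hours later, and the labels name no other agent. By those labels both groups shared the oxygen and the recovery time. There was 1 array for each rat, and the sources used here do not give the clock time of the exposures.

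The cortex label did not match the markers on all arrays. Pcp2, a gene of cerebellar Purkinje cells, divided them at a log2 signal of 12 into 11 cerebellum-like arrays and 9 cortex-like arrays. The lowest value above the threshold was 13.60 and the highest below it was 10.67. The cerebellum-like arrays were isoflurane replicates 1, 3, 7, 8 and 9 and oxygen replicates 5 to 10. The cortex-like arrays were isoflurane replicates 2, 4, 5, 6 and 10 and oxygen replicates 1 to 4, and set and group were not tied (Fisher's exact test, p = 1). Within the cortex-like arrays, isoflurane replicates 2, 4, 5 and 6 stood apart by 5 cerebellar genes, all of them on the array. The log2 of the summed linear signals of these genes was 7.18 to 7.87 in those replicates, 12.25 in isoflurane replicate 10 and 9.38 to 10.61 after oxygen. Results are therefore also given without these 4 arrays. Within the cortex-like set that leaves isoflurane replicate 10 alone, assumed to vary like the oxygen arrays, and a lost call in so small a set shows little.

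The brightest tested probe set stands for a gene, and levels are log2 MAS5 signals. Changes are isoflurane minus oxygen in limma, with the array set as a term unless a set is named, and a gene passed at a Benjamini-Hochberg adjusted p under 0.05 over 18625 probe sets. In bulk tissue, fewer cells of a type and less RNA per cell cannot be told apart.

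Nr1d1 (REV-ERB alpha), the nuclear receptor that represses Bmal1, was lower after isoflurane in both sets of arrays, by nearly 1 log2 unit. Usp2, a deubiquitinase under clock control in mouse tissues, had a smaller fall. The other 8 genes did not pass over all arrays. Thus 2 of 10 genes passed, both lower and none higher, where 7.73 percent of all 10315 genes passed (5.87 percent lower and 1.86 percent higher). The median change of the 10 genes was 0.05, beside -0.02 over all genes. Without a term for the array set, Nr1d1 alone passed, where 0.524 percent of all genes did.

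**Figure D1:**
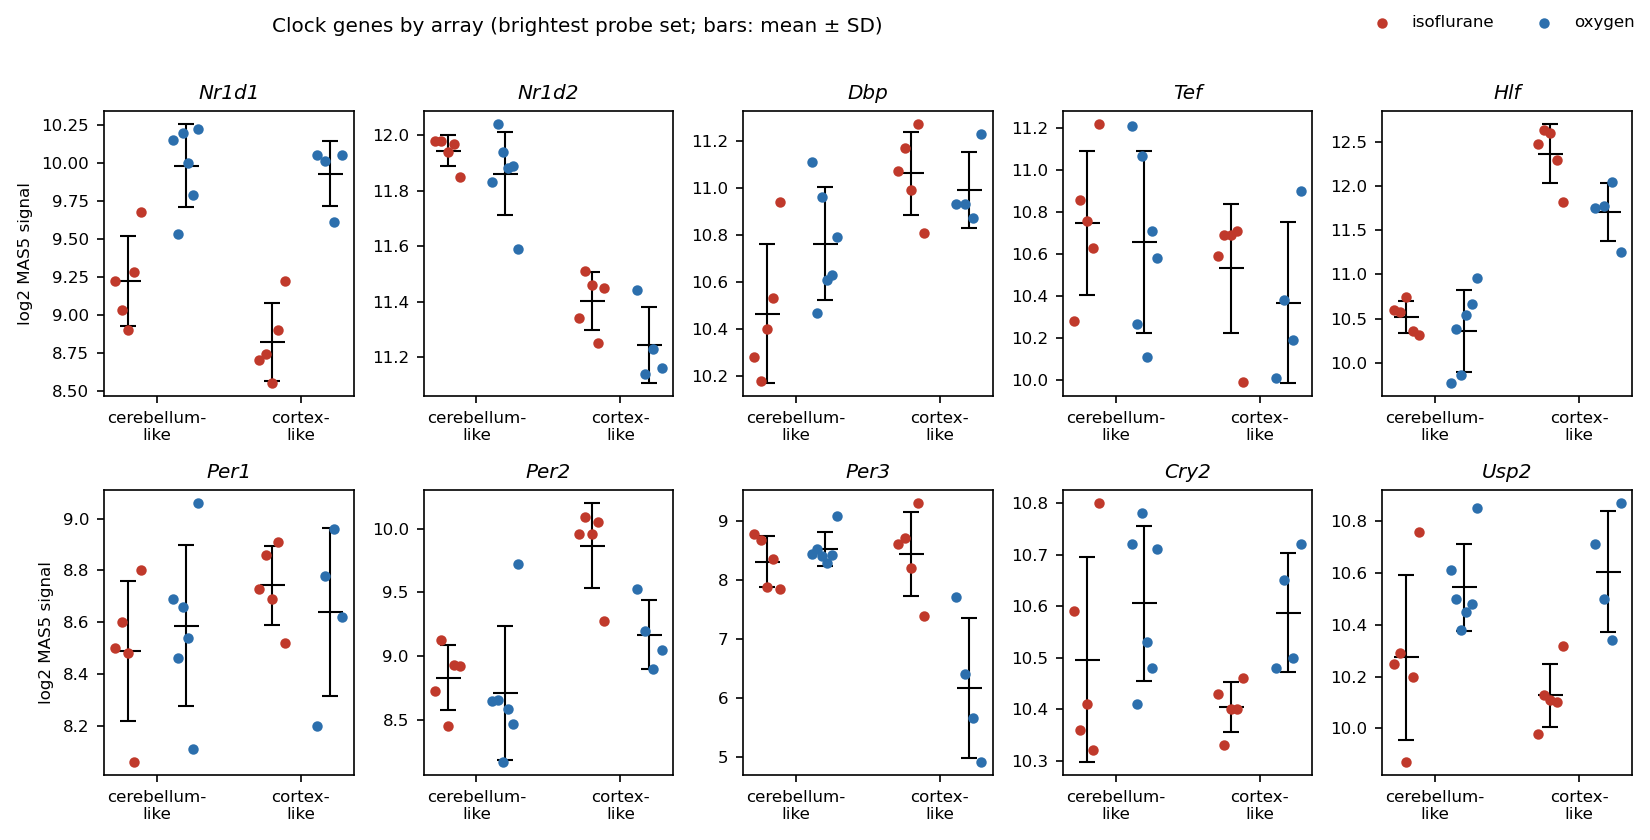
Log2 MAS5 signal of each clock gene (brightest tested probe set) by array, for isoflurane (red, left of each pair) and oxygen (blue), in cerebellum-like and cortex-like arrays, with bars for the mean ± SD. The vertical axes differ between panels. Nr1d1 averaged 9.22 after isoflurane against 9.98 after oxygen in the cerebellum-like arrays, and 8.82 against 9.93 in the cortex-like arrays.

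Promoter windows of Nr1d1, Usp2, Cry2 and Per2 are shown to set the members that passed, and the member most like Nr1d1 between animals, beside a Per gene that did not fall. They are the RefSeq windows of assembly GRCr8 from 250 bases before to 50 bases after a transcript start. Capitals mark a motif: CACGTG (E-box), its variant CACGTT, TTATGTAA or TTACGTAA (D-box), AGGTCA (nuclear receptor half-site) or TGACGTCA (cAMP response element), each searched on both strands, with no overlap between the matches found. Both Nr1d1 windows lie on the minus strand, at chr10:84231763-84232062 (outer start) and chr10:84229405-84229704 (inner start). Usp2 is at chr8:53310620-53310919 on the plus strand, Cry2 at chr3:98860388-98860687 on the minus strand and Per2 at chr9:99496944-99497243 on the minus strand.
Nr1d1 outer start: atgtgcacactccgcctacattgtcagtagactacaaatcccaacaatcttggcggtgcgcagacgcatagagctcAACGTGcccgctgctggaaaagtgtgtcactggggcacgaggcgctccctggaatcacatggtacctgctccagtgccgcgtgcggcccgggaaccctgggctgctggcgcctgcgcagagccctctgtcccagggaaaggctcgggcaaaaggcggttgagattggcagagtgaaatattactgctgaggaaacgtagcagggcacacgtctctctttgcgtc
Nr1d1 inner start: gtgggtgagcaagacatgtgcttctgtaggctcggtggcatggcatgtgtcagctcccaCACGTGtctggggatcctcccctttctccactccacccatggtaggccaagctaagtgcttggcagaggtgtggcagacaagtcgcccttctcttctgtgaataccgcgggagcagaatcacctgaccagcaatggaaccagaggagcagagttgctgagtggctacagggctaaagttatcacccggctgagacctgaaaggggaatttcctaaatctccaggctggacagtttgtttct
Usp2: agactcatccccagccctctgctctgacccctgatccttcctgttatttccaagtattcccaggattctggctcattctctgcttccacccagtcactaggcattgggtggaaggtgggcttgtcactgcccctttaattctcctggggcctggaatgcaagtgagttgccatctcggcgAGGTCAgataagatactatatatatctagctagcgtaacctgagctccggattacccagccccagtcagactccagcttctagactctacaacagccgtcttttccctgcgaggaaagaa
Cry2: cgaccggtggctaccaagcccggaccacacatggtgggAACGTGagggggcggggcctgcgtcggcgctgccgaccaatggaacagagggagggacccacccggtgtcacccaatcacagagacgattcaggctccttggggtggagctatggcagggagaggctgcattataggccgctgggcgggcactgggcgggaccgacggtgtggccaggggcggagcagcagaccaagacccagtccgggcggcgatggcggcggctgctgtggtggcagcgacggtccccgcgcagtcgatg
Per2: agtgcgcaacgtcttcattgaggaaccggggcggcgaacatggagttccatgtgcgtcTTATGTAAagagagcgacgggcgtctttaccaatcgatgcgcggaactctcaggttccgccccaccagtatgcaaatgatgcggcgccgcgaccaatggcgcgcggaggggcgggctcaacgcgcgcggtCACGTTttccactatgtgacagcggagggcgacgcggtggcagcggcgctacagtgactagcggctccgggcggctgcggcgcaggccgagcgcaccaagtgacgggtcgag

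In these windows the outer Nr1d1 start had the E-box variant on its opposite strand at base -174, and the inner start an E-box at -191. Usp2 had a half-site at -70, Cry2 the variant on the opposite strand at -212, and Per2 both the variant at -62 and a D-box at -192. Among the windows not printed, Tef had an E-box at -198 and Nr1d2 a half-site at -187, and none of the motifs was found for Dbp, Per1 or Per3. The windows of Usp2, Tef, Per1 and Per3 lay wholly inside the annotated genes, like that of the inner Nr1d1 start. Starts nearer the outer ends of those genes were not searched, and Hlf had no window. Of 33469 promoter windows of the same length, 6.42 percent held the E-box, 4.83 percent its variant, 1.01 percent the D-box, 16.2 percent the half-site and 1.83 percent the cAMP response element. These matches describe letters in a window, not binding.

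In the cerebellum-like arrays Nr1d1 (1370816_at) had signals of 9.22, 9.03, 8.90, 9.28 and 9.68 in isoflurane replicates 1, 3, 7, 8 and 9, against a lowest value of 9.53, a median of 10.07 and a highest of 10.22 in the 6 oxygen arrays. In the cortex-like arrays it had 8.70, 8.74, 8.55, 8.90 and 9.22 in isoflurane replicates 2, 4, 5, 6 and 10, against 10.05, 10.01, 9.61 and 10.05 in oxygen replicates 1 to 4. The groups did not overlap in the cortex-like arrays, and in the cerebellum-like arrays isoflurane replicate 9 alone reached the oxygen range. Over all 20 arrays Nr1d1 averaged 9.02 ± 0.34 after isoflurane and 9.96 ± 0.24 after oxygen (SD, n = 10 each), and 9 of 10 isoflurane arrays lay below every oxygen array.

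With the set as a term, the change of Nr1d1 was -0.92 ± 0.12 SE (0.530-fold, limma adjusted p = 0.00204). It was -0.76 ± 0.16 SE in the cerebellum-like arrays, where no probe set of the 18625 passed after adjustment (0 percent, and 12.8 percent at an unadjusted p under 0.05), and Nr1d1 had an unadjusted limma p of 0.000297 and an adjusted p of 0.306. Of the 11 fits there with 1 array left out, 1 passed, at -0.88 (limma adjusted p = 0.00872). That fit left out isoflurane replicate 9, the array that reached the oxygen range, so its pass is no independent support. In the cortex-like arrays the change of Nr1d1 was -1.11 ± 0.15 SE (limma adjusted p = 0.00602). The difference of the effect between the sets, cerebellum-like minus cortex-like, was 0.35 ± 0.23 SE (limma adjusted p = 0.339). Leaving out isoflurane replicates 2, 4, 5 and 6 gave a change of -0.75 ± 0.13 SE, with an adjusted limma p of 0.104, and no probe set of the 18625 passed in that fit (16.2 percent at an unadjusted p under 0.05).

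**Figure D2:**
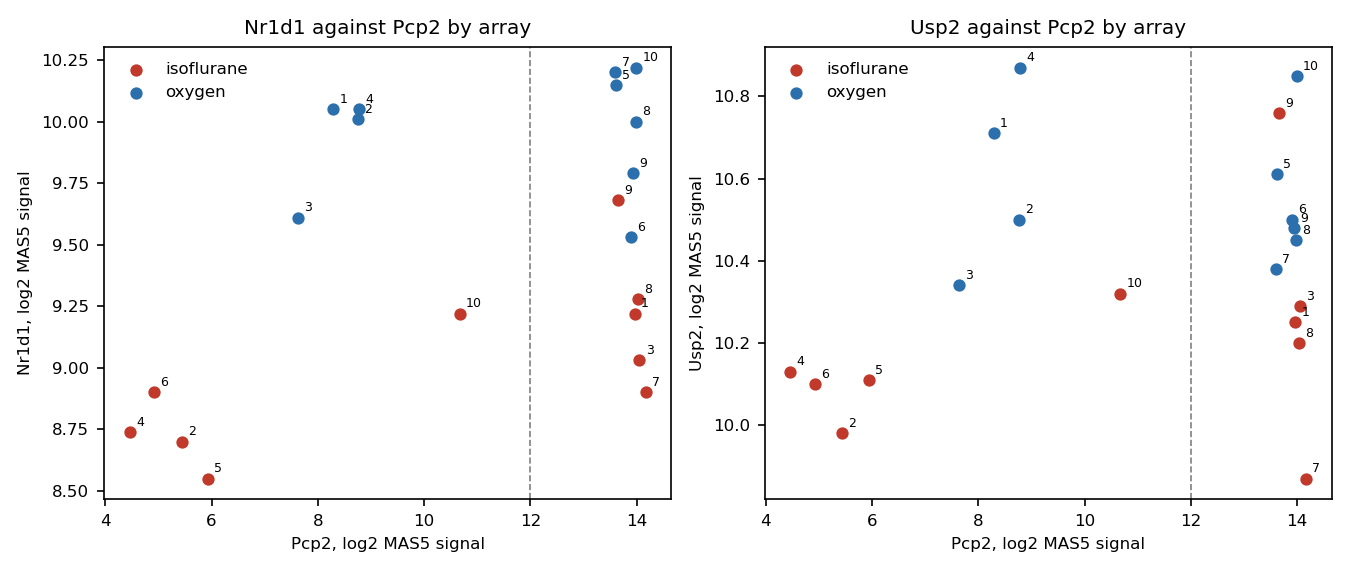
Log2 signal of Nr1d1 (left panel) and Usp2 (right panel) against log2 signal of Pcp2, 1 point for each array with its replicate number, isoflurane red and oxygen blue, with the dashed line at 12, the threshold between the sets. Isoflurane points lie below oxygen points on both sides of the line for Nr1d1, with isoflurane replicate 9 (9.68) as the exception on the right side.

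Thra, which encodes a thyroid hormone receptor, is the neighbour of Nr1d1 on the opposite strand, and the annotated genes overlap at their ends. Its probe set 1367726_at changed by -0.52 ± 0.13 SE (limma adjusted p = 0.0274), with -0.23 in the cerebellum-like and -0.87 in the cortex-like arrays. It did not pass without the 4 arrays (-0.32, limma adjusted p = 0.302) or without the set term (limma adjusted p = 0.091). A second probe set, 1370691_a_at, ran the other way between the sets, at -0.76 and 0.02, and did not pass (-0.41 ± 0.18 SE, limma adjusted p = 0.16). The paralog of Nr1d1, Nr1d2 (REV-ERB beta), did not pass at any of its 3 probe sets: its brightest, 1390430_at, ran from 11.85 to 11.98 after isoflurane against 11.59 to 12.04 after oxygen in the cerebellum-like arrays, and from 11.25 to 11.51 against 11.14 to 11.44 in the cortex-like arrays. Its change was 0.12 ± 0.06 SE (limma adjusted p = 0.202). The next, 1370541_at, had 0.08 ± 0.09 SE over all arrays. The dimmest, 1370540_at, had 5.14, 5.62, 4.93 and 4.83 in isoflurane replicates 2, 4, 5 and 6 and 7.66 in replicate 10, against 5.43 to 7.73 in the cortex-like oxygen arrays, a change of -0.86 ± 0.63 SE there (limma adjusted p = 0.356).

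For Usp2 (1387703_a_at) the cerebellum-like signals were 10.25, 10.29, 9.87, 10.20 and 10.76 in isoflurane replicates 1, 3, 7, 8 and 9, against 10.38, 10.49 and 10.85 as the lowest, median and highest of the 6 oxygen arrays. The cortex-like signals were 9.98, 10.13, 10.11, 10.10 and 10.32 in isoflurane replicates 2, 4, 5, 6 and 10, against 10.71, 10.50, 10.34 and 10.87 in oxygen replicates 1 to 4. As with Nr1d1, 9 of 10 isoflurane arrays were below every oxygen array, and isoflurane replicate 9 was the exception. Usp2 fell by 0.36 on the log2 scale (change -0.36 ± 0.10 SE, 0.777-fold, limma adjusted p = 0.0298), with -0.27 in the cerebellum-like arrays (limma adjusted p = 0.408) and -0.47 in the cortex-like arrays (limma adjusted p = 0.0227). Without the 4 arrays the change was -0.27 ± 0.12 SE (limma adjusted p = 0.265). Leaving out any 1 of oxygen replicates 1 and 4 or isoflurane replicates 2, 4, 5, 7 and 8 ended the call over all arrays, at -0.36 to -0.32 with limma adjusted p of 0.0503 to 0.0703. Its second probe set, 1375549_at, had -0.66 ± 0.23 SE over all arrays (limma adjusted p = 0.0764) and -0.61 without the 4. It fell by 0.90 on the log2 scale in the cortex-like arrays (limma adjusted p = 0.0167), with 8.33 to 8.63 after isoflurane against 9.08 to 10.17 after oxygen and no overlap.

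In the cortex-like arrays the pattern of the 10 genes was mixed. There 2 genes were lower (Nr1d1 and Usp2) and 3 higher (Per2, Per3 and Hlf), where 15.3 percent of all genes passed (9.04 percent lower and 6.22 percent higher). With each array centred on its median, which moved the median change of all probe sets to -0.21, the split became 3 lower (Cry2 beside Nr1d1 and Usp2) and 2 higher (Per2 and Per3). In that fit 3776 of all 18625 probe sets passed lower and 1467 higher, against 1382 and 2087 without centring, so the whole array moved the same way. For all 3 genes called higher, isoflurane replicate 10 lay within the oxygen range and the other 4 isoflurane arrays above it. Leaving out isoflurane replicate 2, 4, 5 or 6 or oxygen replicate 4 alone left 2 genes, Nr1d1 and Per3, and leaving out oxygen replicate 2 left 3. Nr1d1, Usp2 and Cry2 were lower with no overlap between the groups and none was higher, where 6.52 percent of probe sets were lower with no overlap and 6.7 percent higher. No member had groups that did not overlap in the cerebellum-like arrays (0.58 percent lower and 0.408 percent higher over all probe sets).

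Other measures moved with the groups in the cortex-like arrays. The log2 ratio of 3' to 5' signal of the Gapdh control, a sign of RNA quality, was 0.27 ± 0.04 (SD, n = 5) after isoflurane and 0.39 ± 0.07 (n = 4) after oxygen (exact permutation test over 126 arrangements, two-sided, p = 0.0317). In the cerebellum-like arrays it was 0.23 ± 0.14 (n = 5) and 0.30 ± 0.08 (n = 6; exact permutation p = 0.271). Beside the cerebellar list above, 4 of 5 cortical markers on the array summed to 10.89 to 11.21 after isoflurane, against 11.52 to 11.65 after oxygen, in the cortex-like arrays, and 4 of 4 choroid plexus markers to 8.97 to 10.10 against 9.94 to 13.72. Of 3 striatal markers the sum was 11.87 to 12.27 in isoflurane replicates 2, 4, 5 and 6 and 13.02 in replicate 10, against 12.44 to 13.05 after oxygen. Each of these sums is the log2 of summed linear signals, so the brightest marker weighs most. Of the striatal markers Ppp1r1b, the brightest, had -0.49 in the cortex-like arrays (limma adjusted p = 0.151). Drd2 (0.04) and Adora2a (0.19) did not fall there. Single markers were also called lower there: Neurod6 of cortical neurons (-0.77, limma adjusted p = 0.00709), Ttr of choroid plexus (-2.97, limma adjusted p = 0.0179), Gfap (-0.78, limma adjusted p = 0.0132) and Aldh1l1 (-0.51, limma adjusted p = 0.0441) of astrocytes and Csf1r of microglia (-0.56, limma adjusted p = 0.0221). Without the 4 arrays Gfap had -0.04 and Aldh1l1 0.06 over all arrays. By brightest probe set, the cortex-like change was negative for 2 of 3 tested cortical, 2 of 4 microglial, 4 of 4 astrocyte and 1 of 3 striatal markers. Fezf2 (0.26), C1qb (0.14) and Aif1 (0.15) rose without passing. A dimmer probe set of Aqp4 (0.93, limma adjusted p = 0.0114) and of Mbp (0.72, limma adjusted p = 0.0467) was called higher there. Neurod6 medians after isoflurane and oxygen were 10.05 and 10.09 in the cerebellum-like arrays, and 10.24 and 10.88 in the cortex-like arrays. The summed ranges of 4 astrocyte markers (14.36 to 14.60 after isoflurane, against 14.48 to 14.89 after oxygen), 4 oligodendrocyte markers (15.37 to 15.74 against 14.96 to 15.54), 4 endothelial markers (11.33 to 12.06 against 11.46 to 11.69) and 4 microglial markers (10.70 to 11.50 against 10.97 to 11.62) overlapped in the cortex-like arrays, and no marker was at the floor on any array. The part of these measures in the results was not tested. With the 3'/5' ratio as a covariate, Nr1d1 had -0.77 (limma adjusted p = 0.0303) and Usp2 -0.25 (limma adjusted p = 0.301).

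**Figure D3:**
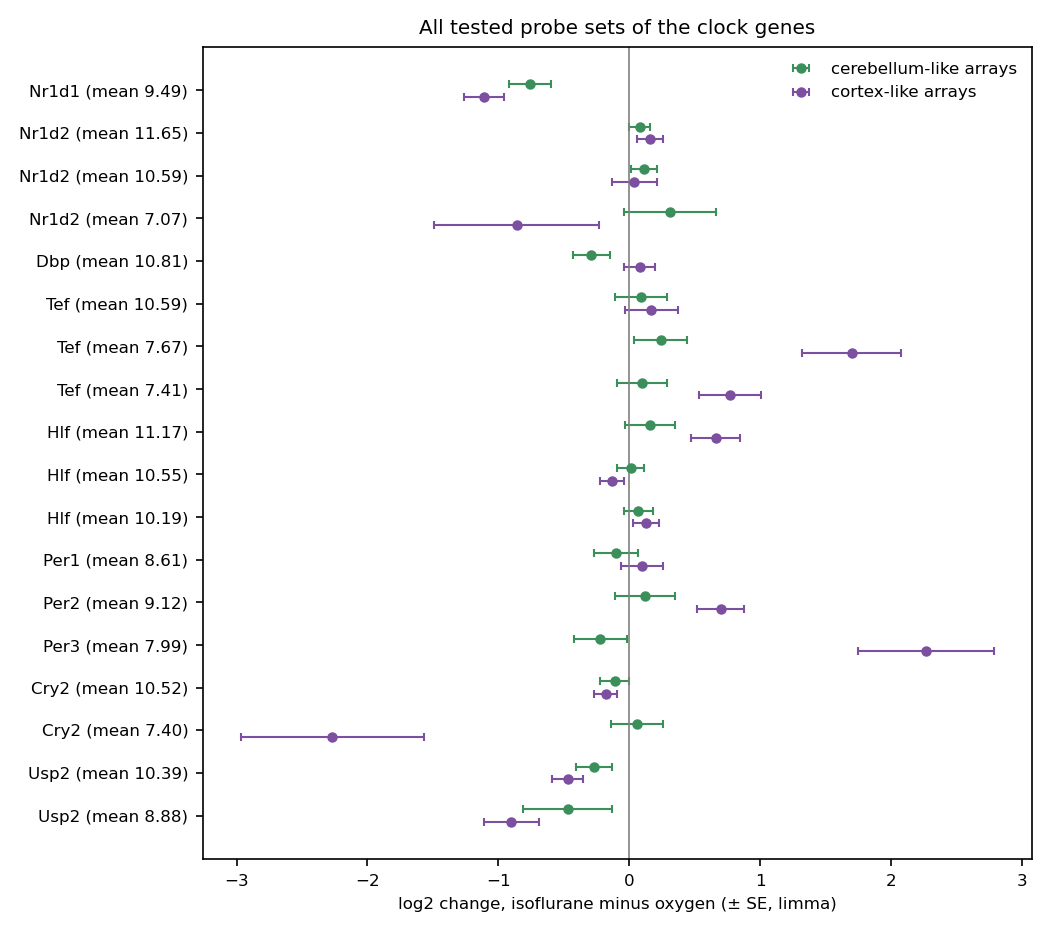
Log2 change, isoflurane minus oxygen, ± SE from limma for all 18 tested probe sets of the clock genes, in cerebellum-like (green) and cortex-like (purple) arrays, labelled by gene and mean log2 signal. Nr1d1 lies left of 0 in both sets, whereas Per3 (2.27) and the dimmer Cry2 probe set (-2.27) depart from 0 in the cortex-like arrays.

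Per2, a PER repressor, had cortex-like signals of 9.96, 10.09, 9.96, 10.05 and 9.28 in isoflurane replicates 2, 4, 5, 6 and 10, against 9.53, 9.20, 8.90 and 9.05 in oxygen replicates 1 to 4, a change of 0.70 ± 0.18 SE (limma adjusted p = 0.0246). Replicate 10 lay within the oxygen range and the other 4 isoflurane arrays above it, and without those 4 the change was 0.11. Leaving out any 1 of these 4, or oxygen replicate 2, 3 or 4, gave 0.61 to 0.71 and ended the call (limma adjusted p of 0.0564 to 0.0731). In the cerebellum-like arrays it was 0.12 ± 0.23 SE (limma adjusted p = 0.815).

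Per3, another PER family member, had the widest spread of the 10 brightest probe sets in the cortex-like arrays. Its cortex-like signals (1378745_at) were 8.62, 8.72, 8.21, 9.31 and 7.39 in isoflurane replicates 2, 4, 5, 6 and 10, against 7.71, 6.41, 5.67 and 4.92 in oxygen replicates 1 to 4. The oxygen arrays alone spanned several log2 units, and isoflurane replicate 10 lay among them. The change was 2.27 ± 0.52 SE (limma adjusted p = 0.0158), against -0.22 ± 0.20 SE in the cerebellum-like arrays (limma adjusted p = 0.614). Per3 was the 1 gene of 10 whose effect differed between the sets (-2.49 ± 0.56 SE, limma adjusted p = 0.0110), where 7.1 percent of all genes did so (10.2 percent of probe sets). With replicate 10 as the 1 isoflurane array left, its cortex-like change was 1.21, and over all arrays without the 4 it was 0.11 ± 0.34 SE. Its untested dimmer probe set averaged 4.90 after isoflurane and 5.08 after oxygen there.

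Per1, the third PER gene, had a change of -0.01 ± 0.12 SE (limma adjusted p = 0.975). It ran from 8.06 to 8.80 after isoflurane against 8.11 to 9.06 after oxygen in the cerebellum-like arrays, and from 8.52 to 8.91 against 8.20 to 8.96 in the cortex-like arrays. The groups overlapped in both sets.

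Cry2, a cryptochrome repressor, had 2 probe sets that disagreed in the cortex-like arrays. The brighter, 1372548_at, had 10.43, 10.33, 10.40, 10.40 and 10.46 in isoflurane replicates 2, 4, 5, 6 and 10, against 10.48, 10.65, 10.50 and 10.72 in oxygen replicates 1 to 4. The groups were apart by little, with a change of -0.18 ± 0.09 SE there (limma adjusted p = 0.16) and -0.14 ± 0.07 SE over all arrays (limma adjusted p = 0.184). The dimmer probe set, 1369446_at, had 3.81, 4.83, 5.19 and 5.31 in isoflurane replicates 2, 4, 5 and 6 and 8.20 in replicate 10, against 8.21, 7.02, 7.98 and 7.75 in oxygen replicates 1 to 4. It fell by 2.27 on the log2 scale in the cortex-like arrays (limma adjusted p = 0.0448), where replicate 10 lay within the oxygen range, and had 0.15 ± 0.20 SE over all arrays without the 4. Its effect differed between the sets by 2.34 ± 0.73 SE (limma adjusted p = 0.0448).

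**Figure D4:**
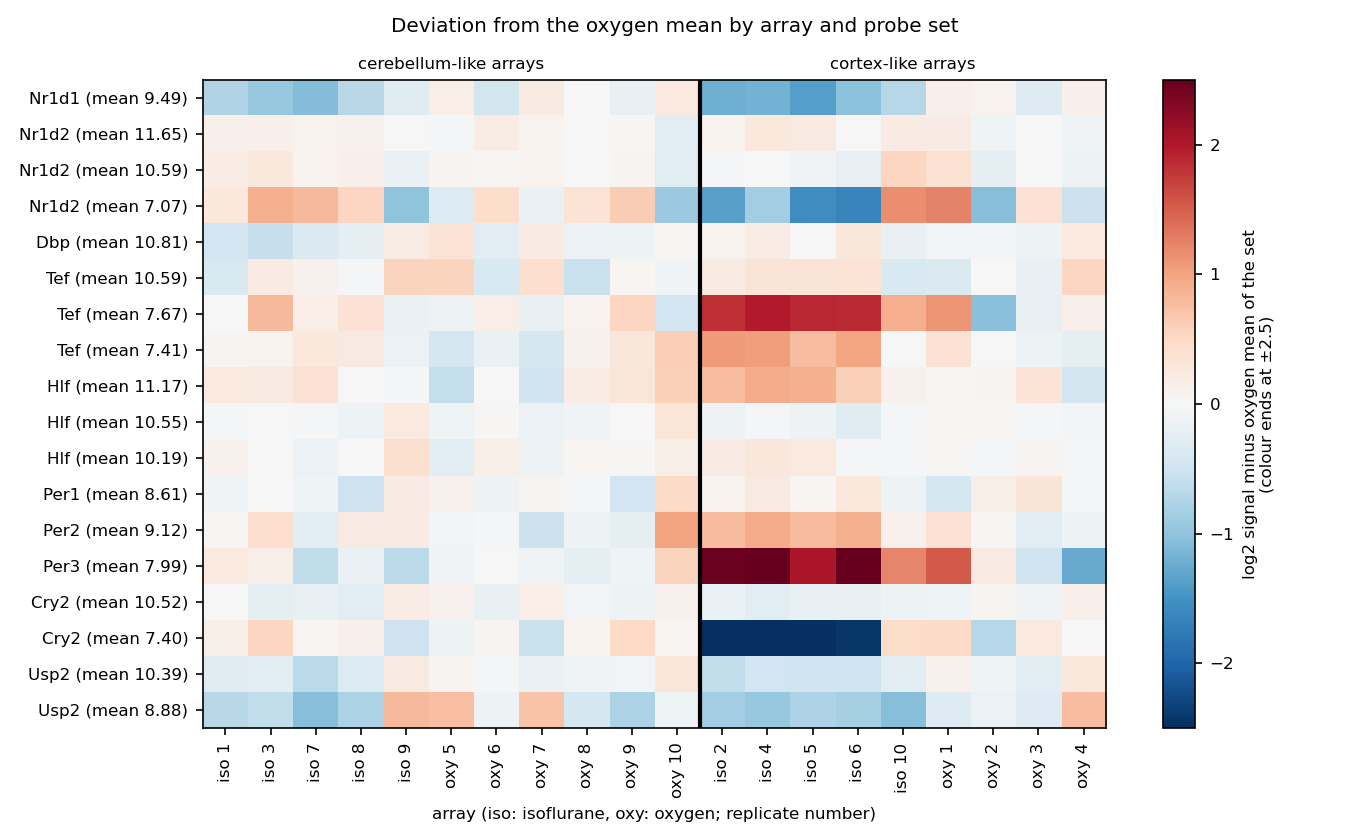
Log2 signal of all 18 tested probe sets minus the oxygen mean of the same set of arrays, by array (columns: isoflurane then oxygen within cerebellum-like and cortex-like arrays) and probe set (rows, with mean log2 signal). Colours end at 2.5 in either direction. Isoflurane replicates 2, 4, 5 and 6 share strong deviations in Per3, Tef (mean 7.67), the dimmest Nr1d2 and the dimmer Cry2 probe sets that isoflurane replicate 10 does not show to that degree.

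Among the PAR bZIP outputs, Dbp did not pass. Its signals (1387874_at) were 10.28, 10.18, 10.40, 10.53 and 10.94 in the cerebellum-like isoflurane replicates 1, 3, 7, 8 and 9, against 10.47, 10.71 and 11.11 as the lowest, median and highest of the 6 oxygen arrays. The change was -0.29 ± 0.14 SE (limma adjusted p = 0.4) there, 0.08 ± 0.12 SE in the cortex-like arrays and -0.13 ± 0.10 SE over all (limma adjusted p = 0.447). The cortex-like sign turned to -0.13 with arrays centred on their medians.

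Tef had 3 probe sets, of which the dimmer 2 were called higher in the cortex-like arrays and the brightest was not. The brightest, 1390819_at, did not pass (0.12 ± 0.15 SE, limma adjusted p = 0.631). The dimmer 1369919_at had cortex-like signals of 8.24, 8.40, 8.30, 8.28 and 7.32 in isoflurane replicates 2, 4, 5, 6 and 10, against 7.52, 5.37, 6.21 and 6.54 in oxygen replicates 1 to 4. It rose by 0.89 ± 0.27 SE over all arrays (limma adjusted p = 0.0457) and by 1.70 in the cortex-like arrays (limma adjusted p = 0.0153), and without the 4 arrays its change over all was 0.39 ± 0.26 SE. The dimmest, 1385374_at, had 8.14, 8.12, 7.85, 8.07 and 7.07 in isoflurane replicates 2, 4, 5, 6 and 10, against 7.44, 7.08, 6.96 and 6.84 in oxygen replicates 1 to 4. It rose by 0.77 ± 0.24 SE there (limma adjusted p = 0.0465), with 0.40 ± 0.17 SE over all arrays (limma adjusted p = 0.136) and 0.07 without the 4. Counted by probe set, 3 of the 18 tested passed over all arrays, 2 lower and 1 higher, where 4.79 percent of probe sets passed lower and 2.58 percent higher. In the cortex-like arrays 4 of the 18 passed lower and 5 higher, where 7.42 percent of probe sets passed lower and 11.2 percent higher.

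Hlf was called higher in the cortex-like arrays through 1 of its probe sets, 1386641_at, which had 12.48, 12.64, 12.60, 12.30 and 11.82 in isoflurane replicates 2, 4, 5, 6 and 10, against 11.75, 11.78, 12.05 and 11.26 in oxygen replicates 1 to 4. Its change was 0.66 ± 0.19 SE (limma adjusted p = 0.034), and 0.11 without the 4 arrays. Leaving out any 1 of those 4, or oxygen replicate 2 or 4, gave 0.51 to 0.68 and ended the call (limma adjusted p of 0.0652 to 0.0899). The other tested Hlf probe sets had -0.13 ± 0.09 SE and 0.13 ± 0.10 SE there, and neither passed. The fourth, 1384811_at, too dim to be tested, averaged 5.73 ± 0.65 (SD, n = 5) after isoflurane and 2.41 ± 1.10 (n = 4) after oxygen there, with no overlap.

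Levels of the genes also differed between the sets of arrays, which is described without a test because the sets were parted on the values of Pcp2. Hlf was lower in the cerebellum-like arrays at all 3 tested probe sets with no overlap, for example 10.43 ± 0.36 (SD, n = 11) against 12.08 ± 0.46 (n = 9) in the cortex-like arrays. Nr1d2 was higher in the cerebellum-like arrays, at 11.90 ± 0.12 against 11.33 ± 0.14, with no overlap at 2 of 3 probe sets. Nr1d1 overlapped between the sets, at 9.63 ± 0.48 against 9.31 ± 0.62. The share of all probe sets without overlap between the sets was not computed, so a lack of overlap does not mark these genes out.

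Between animals of the same treatment, the members did not form 1 block. Pearson correlations were computed after removing group means for 45 pairs in each set, 90 in all, and none passed Benjamini-Hochberg adjustment (exact permutation within groups; 11 pairs in the cerebellum-like and 6 in the cortex-like arrays had an unadjusted p under 0.05). Dbp and Tef ran together in both sets, with r = 0.78 (rho = 0.65, exact permutation p = 0.00919 and 0.0461, adjusted p = 0.156 and 0.346) over 11 arrays and r = 0.85 (rho = 0.77, exact permutation p = 0.0156 and 0.034, adjusted p = 0.156 and 0.346) over 9. Without the 2 farthest arrays these r were 0.86 and 0.77 (exact permutation p = 0.00833 and 0.139). In the same order of sets, Nr1d1 with Usp2 had r = 0.67 and 0.73 (exact permutation p = 0.0404 and 0.0267, adjusted p = 0.242 and 0.185). Per2 with Per3 had r = 0.63 and 0.82 (exact permutation p = 0.0393 and 0.0104, adjusted p = 0.242 and 0.156). How often pairs of other genes reach such r was not computed. Nr1d1 with Cry2 had r = 0.85 in the cerebellum-like arrays (rho = 0.80, exact permutation p = 0.00265 and 0.00749, adjusted p = 0.156 and 0.211, and r = 0.84 without the 2 farthest arrays) and r = 0.46 in the cortex-like arrays (rho = 0.37, exact permutation p = 0.216 and 0.484). In the cerebellum-like arrays these genes also ran with the Gapdh 3'/5' ratio, with r = 0.70 for Nr1d1 (rho = 0.52, exact permutation p = 0.0351 and 0.111), 0.77 for Cry2 (rho = 0.63, exact permutation p = 0.016 and 0.0505) and 0.73 for Dbp (rho = 0.40, exact permutation p = 0.0293 and 0.246). None of 20 such tests passed adjustment (adjusted p = 0.176, 0.16 and 0.176), and without the 2 farthest arrays r was 0.38, 0.56 and 0.50. Hlf ran the other way, at r = -0.58 (rho = -0.71, exact permutation p = 0.0141 and 0.0118, adjusted p = 0.16 and 0.235). Without the 2 farthest arrays its r was -0.70. Usp2 had r = 0.69 (rho = 0.41, exact permutation p = 0.077 and 0.236), and 0.02 without the 2 farthest. Of the 45 pairs, 15 were positive in both sets, 10 negative in both and 20 of opposite sign.

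Over all 20 arrays, with the mean of each group within each set removed, the 5 genes most like Nr1d1 were Twnk (r = 0.89), Abcc8 (0.87), Nrbp1 (0.87), Grin1 (0.86) and Dlgap3 (0.86). The median r over 10314 genes was 0.07, with 5th and 95th percentiles of -0.53 and 0.63. Among the members, Cry2 had r = 0.74 and 1.46 percent of genes had an r at least as high, Usp2 0.69 and Dbp 0.56, while Hlf had -0.53 and Nr1d2 -0.36. The arrays share a scaling but differ in RNA quality, with log2 Gapdh 3'/5' ratios from 0.12 to 0.48, and these values are a description.

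Lists of other clock genes are read against the shares of all genes that passed over all arrays (7.73 percent) and in the cortex-like arrays (15.3 percent). Of 7 tested activators and genes under ROR and NR1D control (among them Bmal1, Clock, Npas2 and Cry1), none passed over all arrays, and 1 rose in the cortex-like arrays. That gene was Rorb, a nuclear receptor of the ROR family, at 1.67 ± 0.28 SE by its brightest probe set (limma adjusted p = 0.00816). The change of that probe set over all arrays without the 4 was 0.24. A dimmer tested probe set of Rorb did not pass in the cortex-like arrays (0.14 ± 0.19 SE, limma adjusted p = 0.631). Over all arrays the dimmer probe set had 0.05 ± 0.17 SE. Bmal1, the target of NR1D repression, had 0.13 ± 0.10 SE over all arrays (limma adjusted p = 0.396). None of 2 other E-box repressors passed in any fit, Bhlhe41 having -0.15 ± 0.09 SE (limma adjusted p = 0.273). Of 5 kinases and turnover factors none passed over all arrays, and Gsk3b, a kinase acting on clock proteins, rose in the cortex-like arrays (1.35 ± 0.36 SE, limma adjusted p = 0.0272; -0.28 over all arrays without the 4).

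Of 8 clock-linked outputs, 2 rose over all arrays and none fell, where 1.86 percent of all genes passed higher and 5.87 percent lower. Rbm3, a cold-inducible RNA-binding protein, had 0.35 ± 0.07 SE (limma adjusted p = 0.0127), with 0.19 in the cerebellum-like and 0.53 in the cortex-like arrays. Tsc22d3, a glucocorticoid-induced gene, had 0.27 ± 0.07 SE (limma adjusted p = 0.0312). Without the 4 arrays these changes were 0.27 and 0.22, with limma adjusted p of 0.186 and 0.248.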

How the data were processed

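The 1-colour Affymetrix arrays of 20 rats, 10 per group by the sample titles, were analysed. The deposited values are linear MAS5 signal intensities, which the authors made, per the submitters' processing notes, with MAS5 and the software Affymetrix Expression Console. The sources used here give no versions, and detection calls were not used. Each array had a 2% trimmed mean between 500.1 and 500.2, and medians of log2 signal lay between 7.20 and 7.57. Because of this scaling a change is relative to an array's average signal, and the number of arrays limits the precision. The highest correlation between any pair of arrays was 0.958.

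The 2015 values below 1 were set to 1 before taking log2, and nothing else was normalized. Leaving controls aside, 18625 of 31042 probe sets above the 40th percentile of mean log2 signal (6.62) were tested. The platform annotation gave 20826 probe sets 1 gene, while 436 had several and 9780 had none. Two-sided tests used the R package limma (version 3.58.1, R version 4.3.3), with moderated variances (eBayes, trended on intensity) and Benjamini-Hochberg adjustment, with the array set as a term or within a set. Correlations, exact permutations, promoter searches and plots used Python 3.11.15 with scipy 1.17.1, numpy 2.4.6, matplotlib 3.10.9 and pandas 2.3.3. The fits and correlations were tested on simulated data. The members, the other gene lists, the array sets and the 4 arrays left out were chosen with earlier results of these data known.

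All members were named, by each of their probe sets that was tested or that went with or against a call. Of the other lists, up to 3 genes that passed were named by lowest p, otherwise the 1 with the lowest p, and the 5 genes most like Nr1d1. Bmal1 and Thra were added after their values were seen. Alternatives were no set term, quantile normalization, median centring, pseudocounts of 16 and 64, no filter, the 60th percentile, eBayes without trend or robust, the mean of a gene's probe sets, the Gapdh 3'/5' ratio as a covariate, a replicate block, Spearman correlation, and arrays left out.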

Additional observations from a re-analysis of the deposited data

Results flagged for a closer look

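Among 40 groups of arrays checked (10 genes, 2 sets, 2 treatments), 6 held an array far from the rest, where chance flags about 1 in 20. In the cortex-like arrays, oxygen replicate 3 had the lowest Nr1d1 signal of its group at 9.61, oxygen replicate 4 the highest Dbp signal at 11.23, and isoflurane replicate 10 the lowest signals of Tef at 9.99 and of Per2 at 9.28. In the cerebellum-like arrays, oxygen replicate 10 had the highest signals of Per2 at 9.72 and of Per3 at 9.09.

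The effect of isoflurane differed between the array sets in limma's interaction test for 3 of the 18 tested member probe sets. Over all 18625 probe sets the share was 10.2 percent. For each of the 3, isoflurane replicates 2, 4, 5 and 6 lay outside the cortex-like oxygen range and isoflurane replicate 10 within it. Cerebellum-like minus cortex-like, the difference was -1.46 for Tef (1369919_at, limma adjusted p = 0.0379), -2.49 for Per3 (1378745_at, limma adjusted p = 0.0110) and 2.34 for Cry2 (1369446_at, limma adjusted p = 0.0448).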

How the results depend on the processing

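Member genes passing over all arrays numbered 2, and 1 with no set term, with the replicate block or with the Gapdh ratio as a covariate, the 1 being Nr1d1. They numbered 0 without isoflurane replicates 2, 4, 5 and 6, as did those within the cortex-like arrays, where 1 isoflurane array is then left. Genes whose effect differed between the sets numbered 1, then 0 with a filter at the 60th percentile (which leaves Per3 out), 2 with the mean of a gene's probe sets and 0 without the 4 arrays. Leaving out 1 array at a time gave 1 to 3 genes over all arrays, 0 to 1 in the cerebellum-like arrays (1 without isoflurane replicate 9), 2 to 5 in the cortex-like arrays and 1 to 1 for the difference. Nr1d1 stayed between -0.99 and -0.88 over all arrays and passed each time, and Usp2 lost its call in 7 of 20 fits.

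Signs reversed for genes that had not passed. Over all arrays, Nr1d2 had -0.01 with the gene mean, Tef -0.02 without the 4 arrays, and Per1 0.01 without the set term, 0.01 with the replicate block and 0.13 with the Gapdh ratio. In the cortex-like arrays centred on medians, Nr1d2 had -0.05, Dbp -0.13, Tef -0.04 and Per1 -0.11, and Nr1d2 had -0.22 with the gene mean. Without the 4 arrays, Dbp had -0.18, Tef -0.38 and Per1 -0.12 there. With 1 array left out, Per1 ranged from -0.08 to 0.05 over all arrays, from -0.19 to 0.01 in the cerebellum-like and from -0.04 to 0.21 in the cortex-like arrays, and Tef from -0.03 to 0.21 in the cerebellum-like arrays. The causes were not tested. Median centring changed the cortex-like calls over all probe sets to 3776 lower and 1467 higher, against 1382 lower and 2087 higher.

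No pairing by replicate number was visible in expression. Same-numbered arrays correlated at -0.26 to 0.23 (median -0.01), 2 of 10 over 0.1, and 1 isoflurane array correlated best with its own number. These values cannot show whether same-numbered rats were handled together. With the replicate block Nr1d1 had -0.92 (limma adjusted p = 0.0388) and Usp2 -0.36 (limma adjusted p = 0.0874). Without detection calls, dim probe sets could not be told from background.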
